A study of Homo sapiens with 60 samples.

Results

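The proteasome genes described here are the 32 genes, of 57665 in the deposited tables, that carry the symbols of 26S proteasome subunits. The rule uses the symbol and no measured value, but the set was chosen with earlier results of these data known. They comprise the 14 subunits of the core particle (PSMA1 to PSMA7 of the alpha rings and PSMB1 to PSMB7 of the beta rings) and 18 genes named for the regulatory particle (the ATPases PSMC1 to PSMC6, and PSMD1 to PSMD8 and PSMD11 to PSMD14). All 32 passed the filter on low counts, which kept 18040 genes. The study used U2OS, an established human osteosarcoma cell line, made to carry Dmr-PERK, in which the kinase domain of mouse PERK is joined to the DmrB domain. The small molecule AP20187 (the dimerizer) brings the fusion proteins together, which turns the kinase on, so that phosphorylation of eIF2 alpha and the integrated stress response can be set by dose and time in the absence of another stress. Cultures received dimerizer at 0.01, 0.2 or 3 nM (the middle dose rounded as in the series' design text). They were collected 1 h, 2 h, 4 h, 8 h, 16 h or 24 h later, with 3 libraries in each of the 18 combinations, and 2 untreated sets of 3 libraries each were labelled 0 h. Per the series' design text, the doses were picked for minimal, partial and the strongest loss of protein synthesis. All groups, the untreated sets included, carry the transgene and the label WT, and whether the line is a single clone is not given in the sources used here. No untreated library is matched to each time, and whether all wells spent the same hours in culture is not given in the sources used here, so against untreated the effect of the dimerizer and that of time in culture cannot be told apart. Nothing in the labels ties the replicates to separate cultures or days, so p-values measure only the spread between these libraries, which may be technical.

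The 26S proteasome is the machine that degrades proteins tagged with ubiquitin. Its core particle is a barrel of stacked rings whose inner beta rings hold the proteolytic sites (PSMB5, chymotrypsin-like; PSMB6, caspase-like; PSMB7, trypsin-like), and the regulatory particle caps the barrel, recognizes and removes ubiquitin, and unfolds substrates with a ring of ATPases before threading them in. In mammalian cells the subunit genes are known to be raised together by the transcription factor NFE2L1 when proteasome activity falls short, through antioxidant response elements in their promoters, and NF-Y, which binds the CCAAT box, is known to act on several of them. ATF4, the transcription factor made during the integrated stress response, binds a different element, the C/EBP-ATF response element.

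The genes are spread over many chromosomes, although PSMD4 (chr1:151254703-151267479 on the plus strand) and PSMB4 lie close together. In GRCh38, by GENCODE 29, PSMB5 is at chr14:23016543-23035230 on the minus strand, PSMB7 at chr9:124353466-124415444 on the minus strand, PSMB4 at chr1:151399534-151401944 on the plus strand, PSMD14 at chr2:161308038-161411717 on the plus strand and PSMD2 at chr3:184298709-184309054 on the plus strand, all as protein-coding genes, and positions matched by identifier for 30 of the 32. Promoter sequence was read from RefSeq (GRCh38.p14) for 27 of the 32 genes, as the 250 bases before the annotated start on the gene's strand, and PSMA7, PSMB1, PSMB6, PSMB7 and PSMD4 had no entry. Both strands were searched for TGACNNNGC, the core of the antioxidant response element. It was present before 4 of the 27 genes (14.81%, against 11.03% of 27305 promoters of the same length), namely PSMB3 at chr17:38752627-38752655, PSMD3 at chr17:39980760-39980788, PSMD12 at chr17:67366724-67366752 and PSMD5 at chr9:120843038-120843066. They are shown because this element is the one known for NFE2L1. They lie on the plus strand for PSMB3 and PSMD3 and on the minus strand for PSMD12 and PSMD5, with the motif in capitals in 29 bases read in the gene's direction:
PSMB3: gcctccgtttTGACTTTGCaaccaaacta
PSMD3: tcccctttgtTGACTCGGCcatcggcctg
PSMD12: agacaaaaccTGACGCTGCaggctggagt
PSMD5: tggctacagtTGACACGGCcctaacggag
The CCAAT box, searched as CCAAT on both strands, was present before 13 of the 27 genes (48.15%, against 33.04% of all promoters), 5 of 10 core and 8 of 17 regulatory genes. The examples are subunits whose RNA changes are given with the results, PSMA5 (chr1:109426486-109426514, minus strand), PSMB5 (chr14:23035368-23035396, minus strand), PSMD8 (chr19:38374471-38374499, plus strand) and PSMD14 (chr2:161308368-161308396, plus strand). For PSMD14 the RefSeq start lies inside the GENCODE 29 interval given above, and so does the stretch shown. PSMD14 also holds CCAAT on the gene's own strand, overlapping the marked letters. In PSMD8 and PSMD14 the capitals mark the box on the opposite strand, read as ATTGG:
PSMA5: aactactaccagCCAATaggaagcaggca
PSMB5: tcattattttacCCAATtttagaaggtgc
PSMD8: gccatgttcattATTGGaaccgtgaggtg
PSMD14: ccgtcgtctccaATTGGccgtcggggaac
The C/EBP-ATF element, searched as TGATGNAA on both strands, was present before 0 of the 27 genes and in 3.186% of all promoters. The 3 motifs share no letters in the sequences shown, and a match describes the letters only.

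Total counts ran from 5598803 to 28436445 per library, with 39 shallower libraries (untreated set 1, 0.01 and 0.2 nM; at most 10367667) and 21 deeper ones (untreated set 2 and 3 nM; at least 20713981). Depth and dose are partly joined, so values against the untreated set of like depth are given for the 24 h changes described where they change a call. ATF4 checked the labels: its normalized CPM (counts scaled to a common library total by the TMM method) were 365, 370.4 and 369 in untreated set 1, 296, 299 and 284 in set 2 and 734, 736 and 724 at 3 nM after 24 h, and its target ASNS, an amino acid synthesis enzyme, rose by 3.16 (SE 0.044, edgeR adjusted p = 3.09e-53) on the log2 scale. The labelled cell type was checked with marker lists, summed over each list in TPM. The 8 osteoblast lineage markers summed to 2428 to 2483 in untreated set 1, 2089 to 2131 in set 2 and 489 to 511 at 3 nM after 24 h, mostly COL1A1 and SPARC, while SP7 and IBSP reached at most 0.196 and 0.132 TPM in any library. The 3 mesenchymal markers, led by VIM, summed to 3197 to 3282, 3092 to 3113 and 1228 to 1241. Both sums were thus lower in the libraries of the highest dose at 24 h, and their part in the results was not tested. The 7 epithelial markers summed to 756 to 819.6, 961 to 987 and 657 to 664, nearly all from KRT8 and KRT18, with EPCAM, CDH1, KRT14 and ESRP1 each under 10 TPM and KRT19 under 1 TPM in all 60 libraries. The 5 endothelial markers summed to at most 3.77 TPM and the 7 blood and immune markers to at most 9.07 TPM. The 37 mitochondrially encoded genes took 21.6% to 24.0% of TPM in untreated set 1, 15.1% to 15.9% at 0.01 nM after 1 h and at most 14.1% elsewhere. TPM must sum to a fixed total. On that scale the median of all tested genes shifted by up to 0.18 in log2 against untreated, and it shifted by 0.21 between the untreated sets. With TPM rescaled without the mitochondrially encoded genes, the median was still 0.13 at 0.2 nM and 0.11 at 3 nM after 1 h. Between the untreated sets it was then 0.07. The cause of these shifts was not tested. After TMM scaling of counts the same medians lay between -0.02 and 0.05. Fold changes below are from counts unless TPM is named.

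In untreated cells the subunits were abundant and unequal. Levels are compared in TPM, which corrects for transcript length. PSMA7 of the alpha ring was the most abundant in the mean of both untreated sets, at 386 ± 17.7 TPM in set 1 and 410.5 ± 17.3 TPM in set 2 (SD, n = 3 each). PSMD2, the scaffold of the regulatory base, followed at 371 ± 23.2 and 404 ± 19.7 TPM, within an SD of PSMA7 in both sets. PSMA4 came next at 318 ± 6.92 and 419 ± 3.05 TPM, below both in set 1 and level with them in set 2, and PSMB4 after it at 344 ± 10.1 and 347 ± 5.96 TPM. At the other end, PSMC4, an ATPase, had 59.2 ± 3.02 and 66.7 ± 2.45 TPM, and PSMD12, a lid subunit, 59.3 ± 3.67 and 77.3 ± 2.14 TPM. The lowest was PSMD5, at 18.5 ± 1.30 and 29.6 ± 2.63 TPM. PSMD5 is an assembly chaperone of the regulatory base and not a part of the finished particle, so it is counted with the regulatory genes by its name only. Among the catalytic subunits, PSMB5 (189 ± 1.31 and 190.3 ± 5.51 TPM), PSMB7 (168 ± 13.8 and 199 ± 5.29 TPM) and PSMB6 (163 ± 4.94 and 176 ± 3.38 TPM) stood in the middle of the order. PSMB5 and PSMB6 differed by more than their SD in both sets, and PSMB7 had the wider spread and overlapped PSMB6 in set 1. After scaling of counts the untreated sets themselves differed in 5 members that were higher in set 2 (14.9% of all genes) and 7 that were lower (14%), with a range from -0.24 (PSMB4) to 0.15 (PSMD12) in log2. The 5 higher calls fell to 0 when any replicate of set 1 was left out and to 3 without replicate 1 or 2 of set 2, and the 7 lower calls to 3 and 4 without replicate 2 or 3 of set 2. On the log2(TPM + 1) scale, tested with limma, 24 members were higher in set 2 (32.7% of all genes) and 0 lower (1.57%), beside the median shift of all genes given above. Antisense genes accompany PSMA3 and PSMD5 at 26.95% and 56.67% of their TPM, and PSMC1 has a processed copy, PSMC1P1, at 9.064%. Libraries were strand-specific per the labels, but whether counting used strand is not given in the sources used here, so these 3 genes are less certain.

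The first response was a small fall of nearly the whole set. After 1 h, relative to untreated, 31 of the 32 genes were lower at 0.01 nM (15.5% of all tested genes were), 31 at 0.2 nM (19%) and 30 at 3 nM (21%), and 0 were higher at any dose (12.6%, 16.2% and 22.6% of all genes). All 14 core genes fell at each dose. The exceptions were PSMD5 at the 3 doses (log2 changes of -0.11, -0.05 and 0.05) and the ATPase PSMC6 at 3 nM (-0.05, SE 0.031, edgeR adjusted p = 0.246). The changes were modest, with a median log2 change of -0.21 for core and -0.20 for regulatory genes at 0.01 nM, -0.27 and -0.24 at 0.2 nM, and -0.24 and -0.18 at 3 nM, beside medians of all genes of 0.00, 0.01 and 0.03. The lid deubiquitinase PSMD14 had 104, 101 and 98.0 CPM in untreated set 1, 111, 100.4 and 104 in set 2 and 81.8, 79.0 and 78.6 at 0.2 nM after 1 h, so the groups did not overlap, and its change was -0.37 (SE 0.047, edgeR adjusted p = 6.73e-09). The catalytic subunit PSMB5 had 154, 154 and 149 CPM in untreated set 1, 139, 132 and 129 in set 2 and 114, 109 and 109 at 3 nM after 1 h, again with no overlap, a change of -0.36 (SE 0.042, edgeR adjusted p = 2.48e-10). In bulk RNA a lower level per cell and a different mix of cells cannot be told apart. On the log2(TPM + 1) scale the fall was smaller: 8, 7 and 4 members were lower at the 3 rising doses (3.26%, 2.64% and 2.4% of all genes) and 0, 0 and 3 were higher (18.8%, 30% and 28.3%). There the median of all genes had moved by 0.11, 0.18 and 0.18, the core medians were -0.07, -0.09 and -0.04 and the regulatory ones -0.08, -0.04 and 0.03, so the regulatory direction at 3 nM flipped with the scale. Relative to all genes, the core medians lay 0.18 to 0.28 below and the regulatory ones 0.15 to 0.25 below at 1 h, over both scales.

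**Figure D1:**
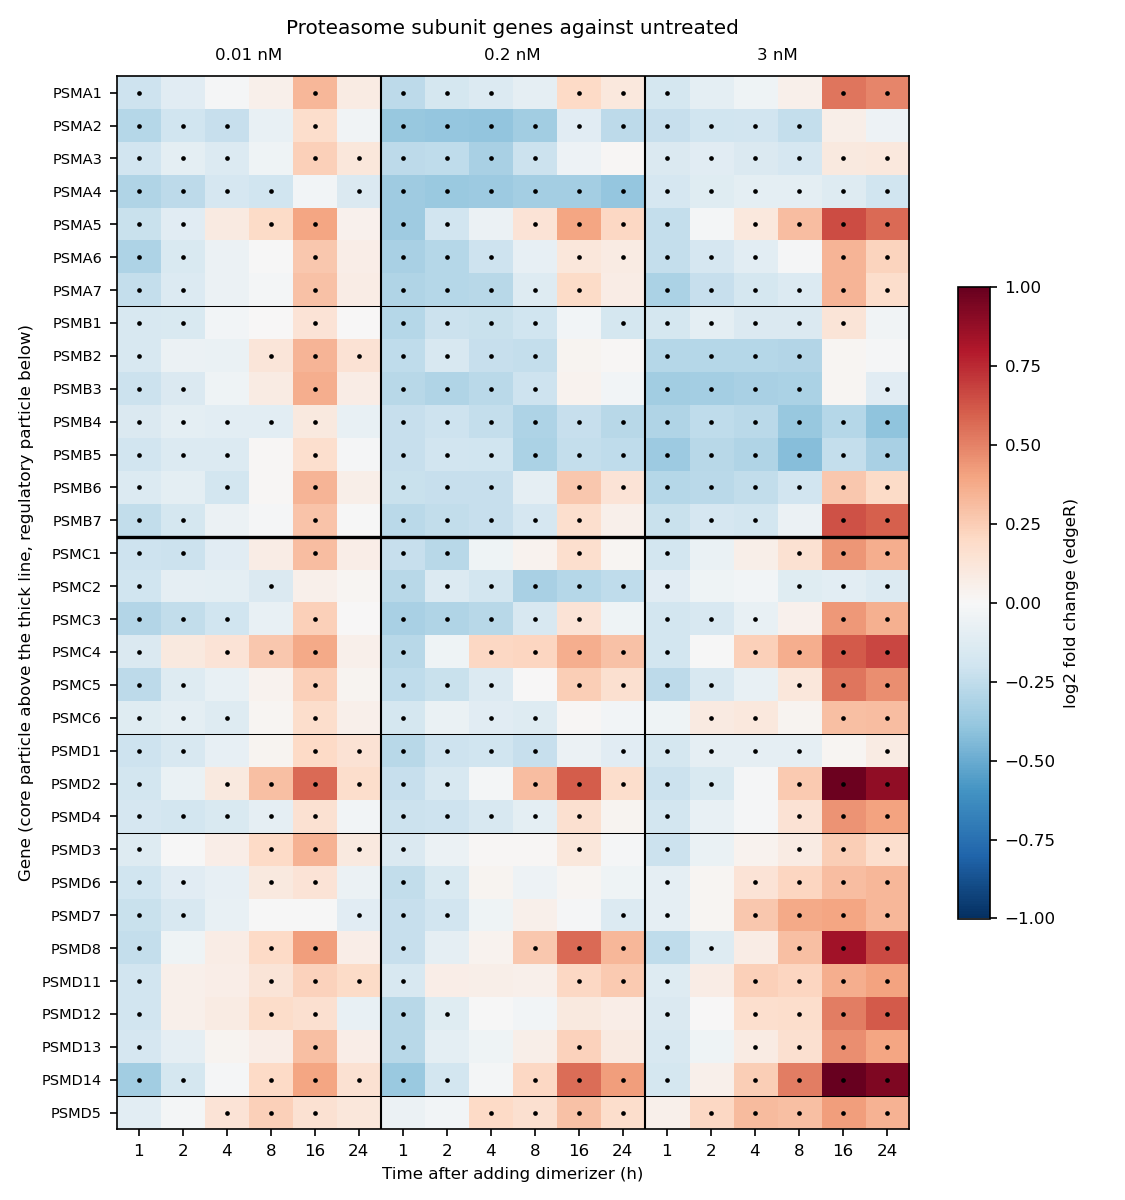
Log2 fold change of each of the 32 subunit genes (rows, by subcomplex) at each dose and time against untreated (columns), with colour from -1 to 1 and a dot where the edgeR adjusted p was under 0.05. Blue fills most of the 1 h columns, and the red of the 16 and 24 h columns at 3 nM lies mainly in the regulatory rows.

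At the lowest dose the fall was followed by a rise at 16 h that was largely gone at 24 h. After 2 h of 0.01 nM, 0 core and 0 regulatory genes were higher (21.5% of all genes) and 11 and 9 were lower (22%). After 4 h, 0 core and 3 regulatory genes were higher (25.9% of all genes) and 6 and 3 were lower (26.1%). After 8 h, 2 core and 9 regulatory genes were higher (27.8% of all genes) and 2 and 2 were lower (26%). At 16 h, 13 core and 16 regulatory genes were higher (26.9% of all genes) and 0 and 0 were lower (25.8%), with medians of 0.28 for core and 0.23 for regulatory genes and of 0.02 for all genes. After 24 h, 2 core and 5 regulatory genes were higher (21% of all genes) and 1 and 1 were lower (22.2%). The 11 higher calls at 8 h became 7 without replicate 1 of that group, the 7 at 24 h became 4 without its replicate 2, and the 3 at 4 h became 1 without replicate 1 of that group or without replicate 1 or 3 of untreated set 1 and 5 without replicate 1 of set 2. Of the 32 genes, 30 had their highest mean level of the 6 times at 16 h and 28 their lowest at 1 h. PSMB6, the caspase-like subunit, had 85.9, 91.5 and 88.8 CPM in untreated set 1, 80.8, 78.8 and 81.4 in set 2, 108, 108 and 104 after 16 h and 80.3, 99.7 and 83.7 after 24 h of 0.01 nM. The 16 h libraries lay above all untreated ones and the 24 h libraries overlapped them, with changes of 0.34 (SE 0.045, edgeR adjusted p = 4.65e-09) and 0.06 (SE 0.045, edgeR adjusted p = 0.291). The 24 h value became 0.12 and was called without replicate 1, and -0.04 without replicate 2. PSMB7, the trypsin-like subunit, had 119, 106 and 102 CPM in set 1, 112, 104 and 106 in set 2 and 136, 127 and 133 after 16 h, again above every untreated library, a change of 0.29 (SE 0.042, edgeR adjusted p = 5.53e-08). The largest change at this time was that of PSMD2, the scaffold of the base that also receives ubiquitin shuttles, at 0.56 (SE 0.029, edgeR adjusted p = 1.36e-24). PSMA4, PSMC2 and PSMD7 were the genes without a call at 16 h (log2 changes within 0.05 of 0). At 24 h PSMB2, a beta ring subunit, was the core gene with the highest change: 129.5, 129.6 and 136.3 CPM in set 1, 127.4, 117.5 and 120.4 in set 2 and 136.5, 146.9 and 137.5 at 0.01 nM, whose lowest library lay just above the highest untreated one, a change of 0.15 (SE 0.043, edgeR adjusted p = 0.00392). Against untreated set 1 alone, of like depth, it was 0.09 (SE 0.052, edgeR adjusted p = 0.164) and not called, nor was it called without replicate 2 of 0.01 nM (0.11). PSMA4 of the alpha ring was the core gene with the lowest change, with 173, 171 and 166 CPM at 0.01 nM and -0.14 (SE 0.031, edgeR adjusted p = 1.59e-04), and against set 1 alone (179.5, 181 and 179 CPM) it was -0.08 and not called. PSMD11, the lid subunit that braces the lid against the core, was the regulatory gene with the highest change: 129, 131 and 134 CPM in set 1, 128, 121 and 123 in set 2 and 145, 148 and 143 at 0.01 nM, all above the untreated libraries, a change of 0.19 (SE 0.038, edgeR adjusted p = 4.75e-05). On the log2(TPM + 1) scale the members called higher numbered 3, 8, 17, 29 and 24 after 2, 4, 8, 16 and 24 h (25.5%, 29.7%, 30.6%, 30.2% and 29.6% of all genes), and those called lower 2, 2, 1, 0 and 0 (8.79%, 14.4%, 14.9%, 15.2% and 8.22%). The TPM medians were lower at 24 h than at 16 h, at 0.19 after 0.36 for core and 0.15 after 0.31 for regulatory genes, beside 0.14 and 0.10 for all genes.

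At 0.2 nM the core genes stayed below untreated for longer and the particles parted, with medians close together again at 24 h. After 2 h, 0 core and 0 regulatory genes were higher (22.4% of all genes) and 14 and 11 were lower (22.4%). At 4 h, 0 core and 2 regulatory genes were higher (30.1% of all genes) and 13 and 6 were lower (29.2%), with medians of -0.23 and -0.03 beside 0.01 for all genes. By 8 h, 1 core and 5 regulatory genes were higher (32.8% of all genes) and 10 and 5 were lower (30.8%), with medians of -0.21 and 0.02. Then, at 16 h, 6 core and 12 regulatory genes were higher (34.9% of all genes) and 4 and 1 were lower (31.5%), and at 24 h 4 core and 7 regulatory genes were higher (34.3% of all genes) and 5 and 3 were lower (31.2%). The core and regulatory medians were 0.03 and 0.17 at 16 h, beside 0.04 for all genes. At 24 h they were 0.01 and 0.05, again beside 0.04. The shares at 24 h were near or below those of all genes. Within the core, members went opposite ways at 24 h. PSMA5, an alpha ring subunit, had 150.1, 136 and 143 CPM in set 1, 144, 133 and 136 in set 2 and 155, 172 and 159 at 0.2 nM, all above the untreated libraries, a change of 0.21 (SE 0.038, edgeR adjusted p = 3.22e-06). PSMA4, also of the alpha ring, had 179.5, 181 and 179 CPM in set 1, 197, 195 and 197 in set 2 and 133, 154 and 144 at 0.2 nM, all below the untreated libraries, a change of -0.39 (SE 0.032, edgeR adjusted p = 2.15e-16), the lowest of the 32. PSMB5 was lower too, with 121, 117 and 121 CPM and a change of -0.25 (SE 0.047, edgeR adjusted p = 4.87e-06), and each of these libraries lay below the 6 untreated ones. PSMB6 was higher at 0.13 (SE 0.044, edgeR adjusted p = 0.0067), with 87.8, 96.2 and 93.9 CPM that overlapped untreated set 1, and against that set alone it was 0.06 (SE 0.054, edgeR adjusted p = 0.316) and not called, nor was it called without replicate 2 of 0.2 nM (0.10). Of the regulatory genes, PSMD14 had the highest change, with 131, 139 and 143 CPM, above all untreated libraries, and a change of 0.42 (SE 0.042, edgeR adjusted p = 3.65e-13). PSMC2, an ATPase, had the lowest, with 104, 108 and 106 CPM in set 1, 109, 99.2 and 105 in set 2 and 85.7, 94.5 and 84.3 at 0.2 nM, below all untreated libraries, and a change of -0.26 (SE 0.043, edgeR adjusted p = 5.85e-07). The falls of PSMB5 and PSMC2 were smaller on the log2(TPM + 1) scale, at -0.08 and -0.10, and were not called there. On the log2(TPM + 1) scale the members called higher numbered 2, 9, 10, 24 and 19 after 2, 4, 8, 16 and 24 h (31.7%, 36.8%, 38.8%, 39.1% and 38.2% of all genes), and those called lower 7, 7, 3, 3 and 3 (7.05%, 15.2%, 18.9%, 21.4% and 19.8%).

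At 3 nM the regulatory genes rose and the core split. After 2 h, 0 core and 2 regulatory genes were higher (27.4% of all genes) and 12 and 5 were lower (23.1%). At 4 h, 1 core and 9 regulatory genes were higher (34.9% of all genes) and 12 and 2 were lower (31.9%), with medians of -0.18 for core and 0.08 for regulatory genes beside 0.02 for all genes. By 8 h, 1 core and 14 regulatory genes were higher (38.5% of all genes) and 10 and 2 were lower (34%), with medians of -0.16 and 0.17. At 16 h, 8 core and 16 regulatory genes were higher (40.6% of all genes) and 3 and 1 were lower (35.5%), with medians of 0.11 and 0.44. At 24 h, 7 core and 17 regulatory genes were higher (41.1% of all genes) and 4 and 1 were lower (36%), with medians of 0.04 and 0.38 beside 0.05 for all genes. The core share at 24 h was near that of all genes, and that of the regulatory genes was above it. Against untreated set 2, of like depth, the 24 h counts were 6 and 17 higher (39% of all genes) and 4 and 1 lower (36.9%). On the log2(TPM + 1) scale the members called higher numbered 7, 11, 19, 25 and 24 after 2, 4, 8, 16 and 24 h (25.2%, 30.4%, 38.1%, 36.4% and 38.6% of all genes), and those called lower 6, 6, 4, 2 and 3 (6.74%, 19.2%, 21.2%, 27.9% and 27.7%).

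**Figure D2:**
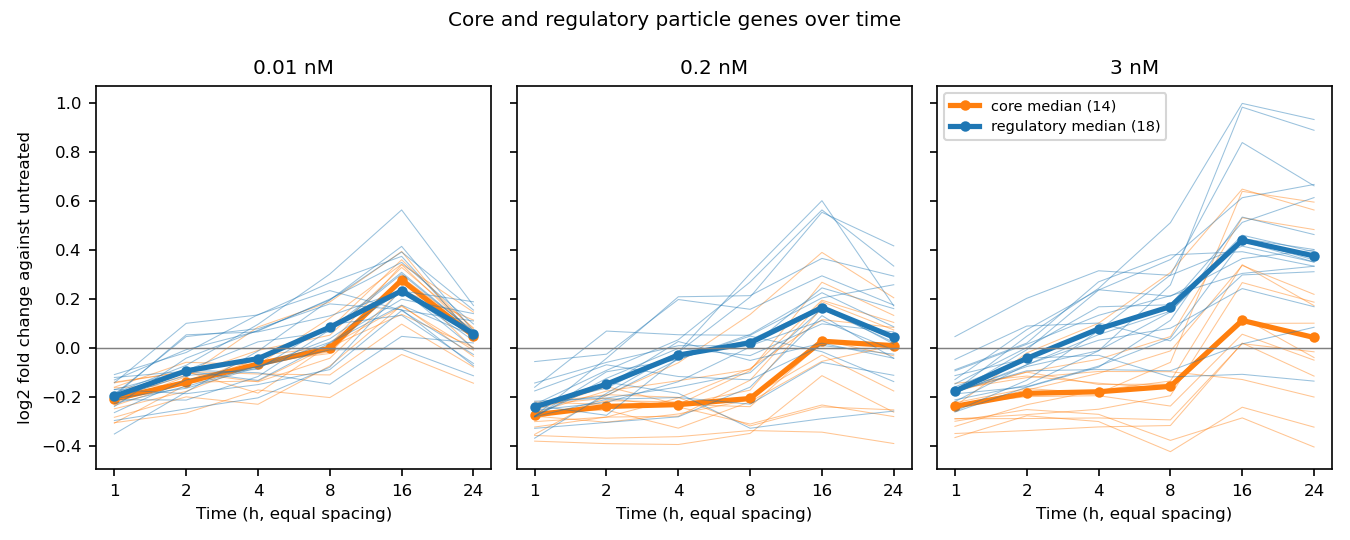
Log2 fold change against untreated over time at each dose, with thin lines for the 32 genes and thick lines for the medians of the 14 core and 18 regulatory genes. Both medians start near -0.2 at 1 h, and at 3 nM they stand at 0.04 and 0.38 after 24 h.

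The regulatory genes that rose at 3 nM were found in every subcomplex. After 24 h, 41.1% of all genes were higher and 36% lower, and the counts of each subcomplex stand beside these shares. Of the 6 ATPases, which form the unfolding ring, 5 were higher after 24 h and PSMC2 was lower (-0.13, SE 0.038, edgeR adjusted p = 0.00116). The fall of PSMC2 was not called without the filter on low counts (-0.06) or on the log2(TPM + 1) scale. PSMC4 had the highest change of the ring at 0.67 (SE 0.039, edgeR adjusted p = 1.02e-22). PSMC2 also stood apart in the libraries, which had 96.6, 93.1 and 98.0 CPM, all below the untreated ones. The 3 scaffold and receptor genes of the base were called higher, from 0.09 (SE 0.031, edgeR adjusted p = 0.0102) for the scaffold PSMD1 to 0.89 (SE 0.027, edgeR adjusted p = 3.46e-36) for PSMD2, with the ubiquitin receptor PSMD4 at 0.40 (SE 0.032, edgeR adjusted p = 2.98e-17). PSMD1 lost its call when any of the 3 nM, 24 h replicates was left out (0.05 to 0.07) or any of untreated set 1 (0.06 to 0.07). It was not called with RLE scaling or DESeq2 either (0.05 in both), nor against set 1 alone (0.05). PSMD2 had 497, 526 and 511 CPM in untreated set 1, 501, 480.2 and 482 in set 2 and 950.3, 939.6 and 886 at 3 nM, with a wide gap between the groups. All 8 lid genes were higher, from 0.17 (SE 0.031, edgeR adjusted p = 2.77e-06) for PSMD3 to 0.93 (SE 0.037, edgeR adjusted p = 6.03e-31) for PSMD14. PSMD14 cuts ubiquitin chains off substrates, and PSMD7 is its partner in the lid. PSMD14 had 123, 122 and 122 CPM after 4 h, 146, 142 and 153 after 8 h, 202, 208 and 209 after 16 h and 197, 204 and 190.5 after 24 h, so that every library from 4 h on lay above the 6 untreated ones, and its change was 1.00 (SE 0.037, edgeR adjusted p = 2.55e-32) at 16 h. PSMD7 had 108, 112 and 109 CPM in set 1, 118, 114 and 113 in set 2, 136, 134 and 137 after 4 h and 142, 143 and 141 after 24 h, above all untreated libraries at both times, and its change at 24 h was 0.33 (SE 0.033, edgeR adjusted p = 5.80e-14). At 0.01 nM PSMD7 had 102, 109.7 and 100.3 CPM after 24 h and was the regulatory gene with the lowest change (-0.11, SE 0.038, edgeR adjusted p = 0.0138), a call not made against untreated set 1 alone (-0.08, SE 0.046, edgeR adjusted p = 0.192), nor without replicate 1 or 3 of that group (-0.10 and -0.11). PSMD11 had 167, 170.2 and 168 CPM after 24 h and a change of 0.40 (SE 0.034, edgeR adjusted p = 3.91e-16). The lid gene PSMD8 (0.66) and PSMD12 (0.61) were among the largest, and the chaperone PSMD5 rose by 0.35 (SE 0.043, edgeR adjusted p = 1.54e-10).

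Inside the core, the 24 h libraries at 3 nM held genes at both ends. Of the 7 alpha genes, which form the outer rings and the gate, 5 were higher and PSMA4 was lower (PSMA3 at 0.10, SE 0.034, edgeR adjusted p = 0.00536, which lost its call without replicate 2 or 3 of 3 nM or replicate 3 of set 1, at 0.08, 0.07 and 0.06, against set 2 alone, at 0.04, and with RLE scaling or DESeq2, at 0.06 in both). Of the 7 beta genes 2 were higher and 3 lower (PSMB3, PSMB4 and PSMB5). Of all genes, 41.1% were higher and 36% lower at this dose and time, so calls in both directions were common beyond the core too. Against untreated set 2 alone, of like depth, PSMB3 was -0.04 and not called, whereas PSMB1 was -0.09 and called lower. PSMB3 was not called without the filter on low counts either (-0.04), nor on the log2(TPM + 1) scale. The catalytic subunits went different ways. PSMB7 had 171, 164 and 156 CPM, above the untreated libraries given earlier, with a change of 0.60 (SE 0.036, edgeR adjusted p = 1.93e-22). PSMB6 had 97.2, 94.5 and 96.8 CPM, also above every untreated library, a change of 0.19 (SE 0.039, edgeR adjusted p = 2.06e-05). PSMB5 had 117, 119 and 106 CPM, below every untreated library, a change of -0.32 (SE 0.043, edgeR adjusted p = 1.05e-09). In TPM, the level of PSMB7 was 0.891 ± 0.079 and 1.05 ± 0.018 times that of PSMB5 in the untreated sets, 1.28 ± 0.05 at 3 nM after 8 h and 1.87 ± 0.083 after 24 h (SD, n = 3). Among the other beta genes, PSMB4, a non-catalytic subunit, was lowest: 228, 221 and 219.6 CPM in set 1, 191, 184 and 189 in set 2 and 156, 157 and 151 at 3 nM, a change of -0.40 (SE 0.032, edgeR adjusted p = 2.46e-17). Its untreated sets did not overlap each other, and against set 2 alone the change was -0.28 (SE 0.035, edgeR adjusted p = 2.62e-10). PSMB2 had 130.3, 123 and 123 CPM, within the range of the untreated libraries, and a change of -0.01 (SE 0.039, edgeR adjusted p = 0.737). Of the alpha genes, PSMA5 had 209.6, 210.2 and 203 CPM, above the untreated libraries, and a change of 0.56 (SE 0.034, edgeR adjusted p = 1.80e-22), and PSMA1 followed at 0.48. PSMA4 had 161, 166 and 164 CPM, below the untreated libraries, and a change of -0.20 (SE 0.029, edgeR adjusted p = 9.22e-09).

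**Figure D3:**
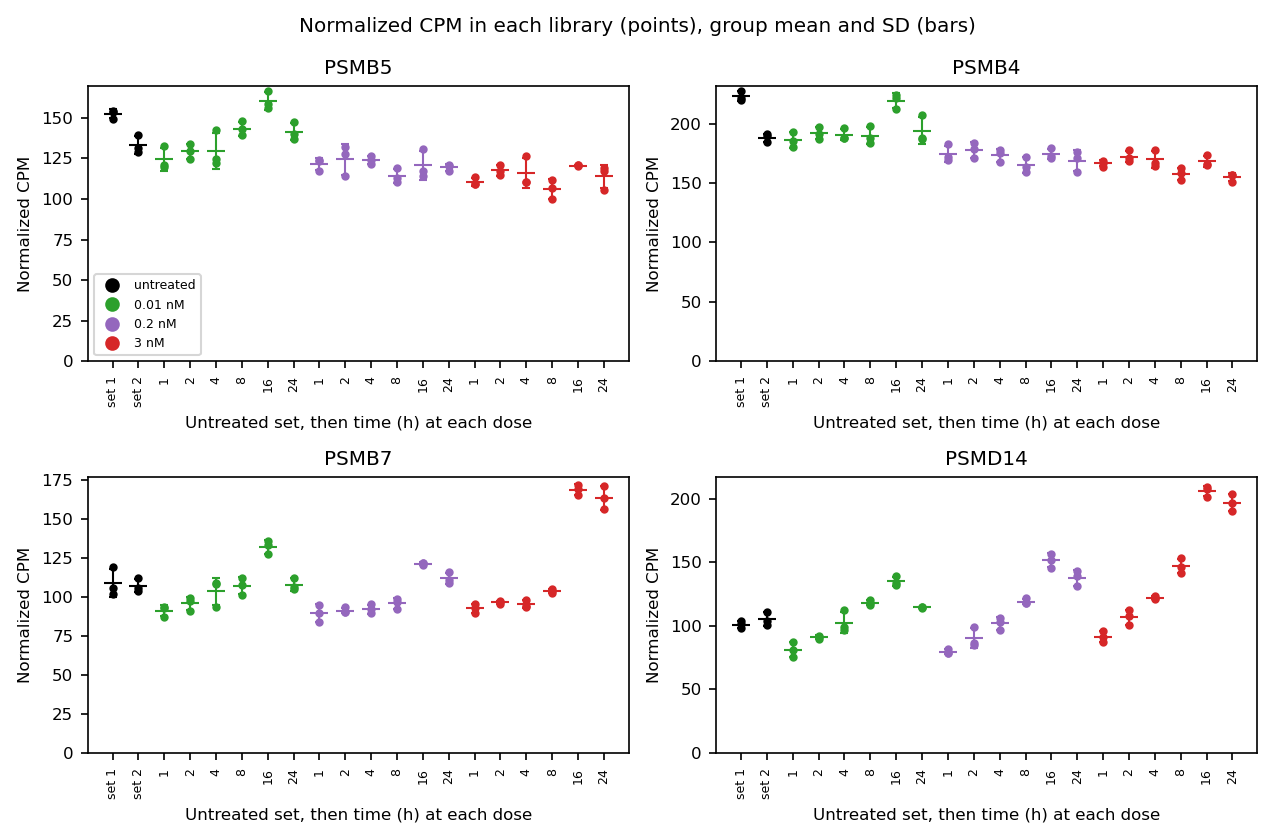
Normalized CPM of PSMB5, PSMB4, PSMB7 and PSMD14 in each of the 60 libraries (points), with the group mean and SD (bars), for the untreated sets and each dose and time. PSMD14 and PSMB7 stand above all untreated libraries at 3 nM after 16 and 24 h, whereas PSMB5 and PSMB4 stand below them.

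Because all subunits of a library share its scale, the ratio of the mean core to the mean regulatory TPM is free of the choice of scaling. It was 1.74 ± 0.035 in untreated set 1 (1.71 to 1.78 in its 3 libraries) and 1.70 ± 0.0098 in set 2 (1.69 to 1.71; SD, n = 3 each). At 3 nM it was 1.64 ± 0.02 after 1 h, 1.57 ± 0.023 after 2 h, 1.48 ± 0.012 after 4 h, 1.37 ± 0.011 after 8 h, 1.32 ± 0.0086 after 16 h and 1.26 ± 0.0042 after 24 h, lower at each later time, and the libraries of neighbouring times did not overlap. The 24 h libraries lay between 1.26 and 1.27. At 0.2 nM it reached 1.43 ± 0.016 after 16 h and was higher again, at 1.53 ± 0.0067, after 24 h. At 0.01 nM the lowest mean was 1.59 ± 0.018 after 8 h, followed by 1.66 ± 0.028 and 1.68 ± 0.021. Without PSMD5 the ratio was 1.66 and 1.62 in the untreated sets and 1.20 at 3 nM after 24 h. PSMD5 has the lowest untreated TPM of the members, so leaving it out could alter the shift only slightly. A ratio without the abundant PSMD2 was not computed. In summed TPM the early and the late parts of the shift at 3 nM differed. The 14 core genes summed to 3043 ± 46.8 in untreated set 1, 3483 ± 72.0 in set 2, 3074 ± 152 after 4 h and 3577 ± 28.8 after 24 h. The 18 regulatory genes summed to 2251 ± 48.5, 2636 ± 41.2, 2665 ± 148 and 3643 ± 30.5. Beside set 2, the core sum was lower in every library after 4 h, with the regulatory sum within its spread, whereas after 24 h the regulatory sum was higher by many times its spread and the core sum by little more than its spread. Set 1, with its larger mitochondrial share of TPM, had the lowest sums of these groups. For single genes, the TPM of PSMD14 was 0.377 ± 0.018 and 0.449 ± 0.0091 times that of PSMB5 in the untreated sets and 0.970 ± 0.053 at 3 nM after 24 h, where the genes were level. PSMD2 to PSMB4 went from 1.07 ± 0.047 and 1.17 ± 0.04 to 2.70 ± 0.076. Both pairs join genes from opposite ends of the range, so they show extremes and not the particles as a whole. Other pairs went the opposite way. At 3 nM after 24 h the highest core log2 change was 0.60 and the lowest regulatory one -0.13. No p-value is given for these summed values, since the set was formed with earlier results of these data known.

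**Figure D4:**
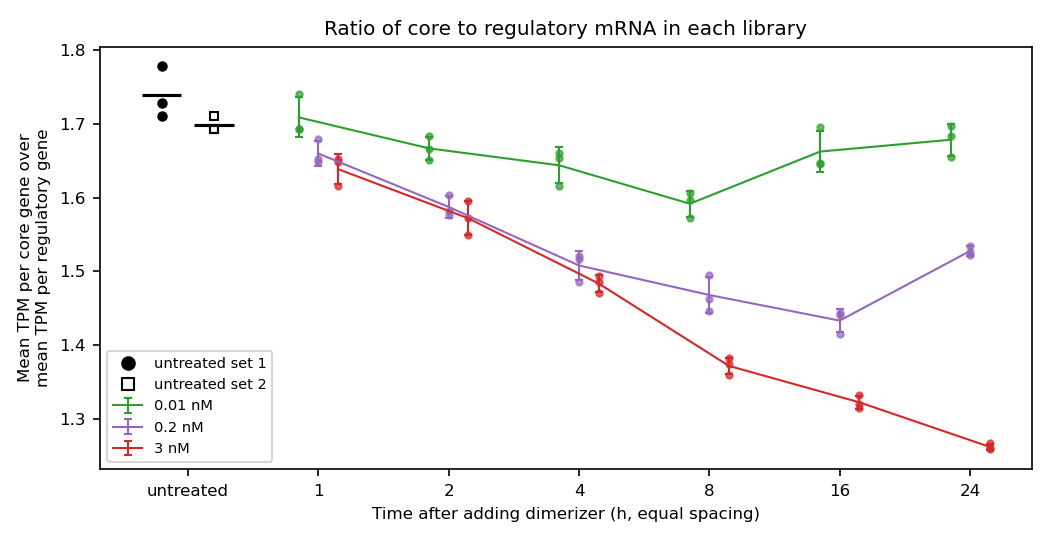
Ratio of the mean TPM of the 14 core genes to that of the 18 regulatory genes in each library (points) and as mean ± SD (line), for the untreated sets and over time at each dose. At 3 nM the ratio is lower at each later time, to 1.26 after 24 h, while at 0.01 nM it stays above 1.57 in every library.

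Doses were compared directly at 4 and 24 h. At 4 h, 0.2 nM against 0.01 nM gave 0 core and 0 regulatory genes higher (13.6% of all genes) and 11 and 2 lower (10.3%), and the beta gene PSMB3 was the lowest at -0.22 (SE 0.056, edgeR adjusted p = 0.00146). The lower count was 13 in all and became 7 without replicate 1 of 0.01 nM at 4 h and 8 without replicate 3 of 0.2 nM at 4 h. In TPM 1 was higher (12.4%) and 5 lower (5.07%). In edgeR the contrast of 3 against 0.2 nM at 4 h had the opposite sign. It gave 5 core and 10 regulatory genes higher (21.3%) and 0 lower (15.5%), led by PSMD7 at 0.32 (SE 0.041, edgeR adjusted p = 6.83e-09). With each dose set against the untreated set of like depth, 11 genes were higher (13%) and 0 lower (10.3%). On the log2(TPM + 1) scale the same contrast at 4 h gave 5 higher (6.34%) and 3 lower (14.4%). With TPM rescaled without the mitochondrially encoded genes, 3 were higher and 6 lower (857 and 3245 of 18003 genes). The balance of calls thus depended on the scale. At 24 h, 0.2 against 0.01 nM gave 1 core and 5 regulatory genes higher (26.9%) and 7 and 3 lower (24.6%), from -0.28 (SE 0.051, edgeR adjusted p = 4.47e-06) for PSMC2 to 0.27 (SE 0.048, edgeR adjusted p = 3.32e-06) for PSMD8, and in TPM 4 were higher (20.4%) and 10 lower (19.6%). At 24 h, 3 against 0.2 nM gave 8 core genes and all 18 regulatory genes higher (30.6%) and only PSMB4 lower (-0.12, SE 0.038, edgeR adjusted p = 0.00443; 25.5% of all genes). PSMD2 had the largest difference at 0.72 (SE 0.033, edgeR adjusted p = 1.77e-26), and PSMB7 the largest of the core at 0.55 (SE 0.044, edgeR adjusted p = 2.06e-16). The differences of PSMB5 and PSMB6 between these doses did not pass the threshold (-0.07, SE 0.052, edgeR adjusted p = 0.252, and 0.05, SE 0.047, edgeR adjusted p = 0.341). With each dose against its untreated set of like depth, 7 core and 16 regulatory genes were higher (25.6%) and 0 lower (22.8%), and in TPM 18 were higher (16.6%) and 4 lower (20.5%).

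Contrasts of 24 h against 4 h within a dose involve no untreated library. At 0.01 nM 6 core and 6 regulatory genes were higher at 24 h (21.9% of all genes) and 1 was lower (23.2%), the lid gene PSMD12 at -0.15 (SE 0.055, edgeR adjusted p = 0.0215). That count was 0 without replicate 1 or 3 at 24 h or replicate 2 at 4 h. At 0.2 nM 10 core and 8 regulatory genes were higher (25.6%) and 0 lower (26.2%), with PSMD14 at 0.43 (SE 0.051, edgeR adjusted p = 1.21e-10) and PSMB6 at 0.36 (SE 0.055, edgeR adjusted p = 9.89e-08). At 3 nM 11 and 15 were higher (34.5%), and PSMA4 (-0.10), PSMB4 (-0.13) and PSMC2 (-0.11) were lower (33.4%). In TPM 15, 16 and 24 members were higher at the 3 rising doses (20%, 19.3% and 24.4%) and 0, 0 and 2 lower (16.8%, 22% and 22.9%). PSMD2 rose most, by 0.90 (SE 0.032, edgeR adjusted p = 2.04e-32), followed by PSMB7 at 0.78 (SE 0.04, edgeR adjusted p = 6.81e-25) and PSMD14 at 0.69 (SE 0.041, edgeR adjusted p = 2.96e-22). Whether the change from 4 to 24 h differed between 3 and 0.2 nM was tested as an interaction, in which any constant offset between shallow and deep libraries cancels. It was larger at 3 nM in 3 core and 13 regulatory genes (19.5% of all genes) and smaller in 0 (16.7%). Of the core it was larger for PSMB7 (0.50, SE 0.065, edgeR adjusted p = 6.49e-09), PSMA1 (0.29) and PSMA5 (0.20), and the regulatory gene with the largest difference was PSMD2 (0.71, SE 0.047, edgeR adjusted p = 6.66e-19). The total of 16 was 10 without replicate 1 of 0.2 nM at 24 h, where 2 genes became smaller, and in TPM it was 11 (10.3% of all genes), with 0 smaller (8.69%). PSMD11 (-0.04, SE 0.059, edgeR adjusted p = 0.627) and PSMC2 (-0.03, SE 0.067, edgeR adjusted p = 0.755) did not pass this test.

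The other genes of the pathway were described from lists by role, 44 genes in all, of which 42 passed the filter (PSMB11 and PSMA8, the thymus and testis subunits, did not). At 3 nM after 24 h 28 of them were higher and 12 lower (41.1% and 36% of all genes), with a median log2 change of 0.38. Of the 8 assembly chaperones 7 were higher and 1 lower, with a median of 0.63. PSMG1, which pairs with PSMG2 to build the alpha ring, had 16.4, 13.2 and 11.3 CPM in untreated set 1, 14.8, 15.1 and 15.4 in set 2 and 39.9, 41.5 and 40.6 at 3 nM, well apart, a change of 1.50 (SE 0.066, edgeR adjusted p = 1.09e-28). At 0.01 and 0.2 nM it was 0.34 and 1.05. POMP, which matures the core, had 74.9, 68.5 and 62.2 CPM in set 1, 71.3, 69.1 and 71.2 in set 2 and 73.1, 80.3 and 78.2 at 3 nM, overlapping untreated set 1, and changed by 0.15 (SE 0.051, edgeR adjusted p = 0.00754). That call was lost without replicate 2 or 3 of 3 nM (0.10 and 0.11) or replicate 3 of set 1 (0.09). POMP was not called with DESeq2 either (0.11), nor with TPM rescaled without the mitochondrially encoded genes (0.08). PSMD10, a chaperone of the base, was the lowest at -0.25 (SE 0.059, edgeR adjusted p = 1.18e-04). On the log2(TPM + 1) scale PSMD10 was at -0.21 and just missed a call (limma adjusted p = 0.0504). Of the 6 other proteins of the finished particle, 5 were higher and 1 lower. UCHL5, a deubiquitinase of the base, had 12.5, 12.7 and 9.34 CPM in set 1, 11.2, 11.5 and 11.3 in set 2 and 30.6, 32.2 and 30.8 at 3 nM, a change of 1.45 (SE 0.075, edgeR adjusted p = 2.54e-25) with no overlap. SEM1, a small lid protein, was the one that fell, from 84.9, 87.8 and 79.2 CPM in set 1 and 93.4, 88.0 and 88.3 in set 2 to 69.4, 66.0 and 61.9 at 3 nM, a change of -0.40 (SE 0.048, edgeR adjusted p = 5.78e-11).

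NFE2L1 itself, the transcription factor of the proteasome genes, had 264, 274 and 279 CPM in untreated set 1, 259.5, 258 and 249 in set 2, 242, 236 and 235 at 3 nM after 1 h, 292, 287 and 276 after 4 h and 536, 535 and 519 after 24 h. The 1 h libraries were the lowest of these and the 24 h ones stood apart from all others. Its change at 24 h was 0.22 at 0.01 nM, 0.83 at 0.2 nM and 1.01 (SE 0.022, edgeR adjusted p = 2.40e-43) at 3 nM. Its list holds its processing enzymes, its small MAF partners, NFE2L2 and the import factor AKIRIN2. Of the 8 genes of that list, 7 were higher and 1 lower at 3 nM after 24 h (41.1% and 36% of all genes). DDI2, the protease that activates NFE2L1, was highest, with 36.7, 37.8 and 43.5 CPM in set 1, 45.4, 40.6 and 45.7 in set 2 and 91.7, 95.2 and 90.7 at 3 nM and a change of 1.15 (SE 0.055, edgeR adjusted p = 4.48e-27). MAFK, a small MAF protein, was the one that fell (-0.57, SE 0.031, edgeR adjusted p = 1.52e-24), and it fell by 1.28 at 0.01 nM and by 1.00 at 0.2 nM. Activity of these proteins was not measured here.

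Among the 3 immunoproteasome genes tested, which replace the catalytic subunits in cells exposed to interferon, PSMB9 fell most, from 3.71, 4.59 and 5.44 CPM in set 1 and 6.33, 5.69 and 5.65 in set 2 to 1.42, 1.14 and 1.05 at 3 nM, a change of -2.10 (SE 0.18, edgeR adjusted p = 8.08e-16). PSMB10 rose by 0.31 (SE 0.072, edgeR adjusted p = 9.78e-05), which was 0.19 and not called against set 1 alone. In TPM the immune subunits were low in untreated cells, with 14.1 ± 1.03 for PSMB9 and 44.7 ± 1.89 for PSMB8 in set 2 beside 176 ± 3.38 for PSMB6. Of the 5 activator and inhibitor genes 4 were higher and 1 lower (41.1% and 36% of all genes). PSME3, the nuclear activator, was highest at 1.18 (SE 0.035, edgeR adjusted p = 7.64e-37), with 124, 125 and 121 CPM in set 1, 131, 127 and 126 in set 2 and 277, 293 and 282 at 3 nM. PSME1, a subunit of the interferon-responsive activator, fell by 0.70 (SE 0.043, edgeR adjusted p = 8.44e-22) on the log2 scale. Of the 7 shuttle and p97 genes, which hand substrates to the proteasome, 3 were higher and 3 lower (41.1% and 36% of all genes). Both counts were near the shares of all genes. The shuttle UBQLN4 was highest of this list (0.83, SE 0.029, edgeR adjusted p = 2.07e-33) and the unfoldase VCP lowest (-0.45, SE 0.023, edgeR adjusted p = 3.24e-25). VCP libraries had 685, 695 and 696 CPM in set 1, 695, 673 and 679.6 in set 2 and 509.7, 509.9 and 494 at 3 nM, with no overlap. Of the 5 ubiquitin and E1 genes 1 was higher and 4 lower (41.1% and 36% of all genes). They ran from UBB, a polyubiquitin gene (-0.59, SE 0.029, edgeR adjusted p = 4.39e-26), to RPS27A, which encodes ubiquitin fused to a ribosomal protein (0.41, SE 0.031, edgeR adjusted p = 3.47e-18). RPS27A has processed copies elsewhere in the genome, so its counts are less certain. Against untreated set 2 alone 28 of the 42 were higher and 11 lower (39% and 36.9% of all genes).

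**Figure D5:**
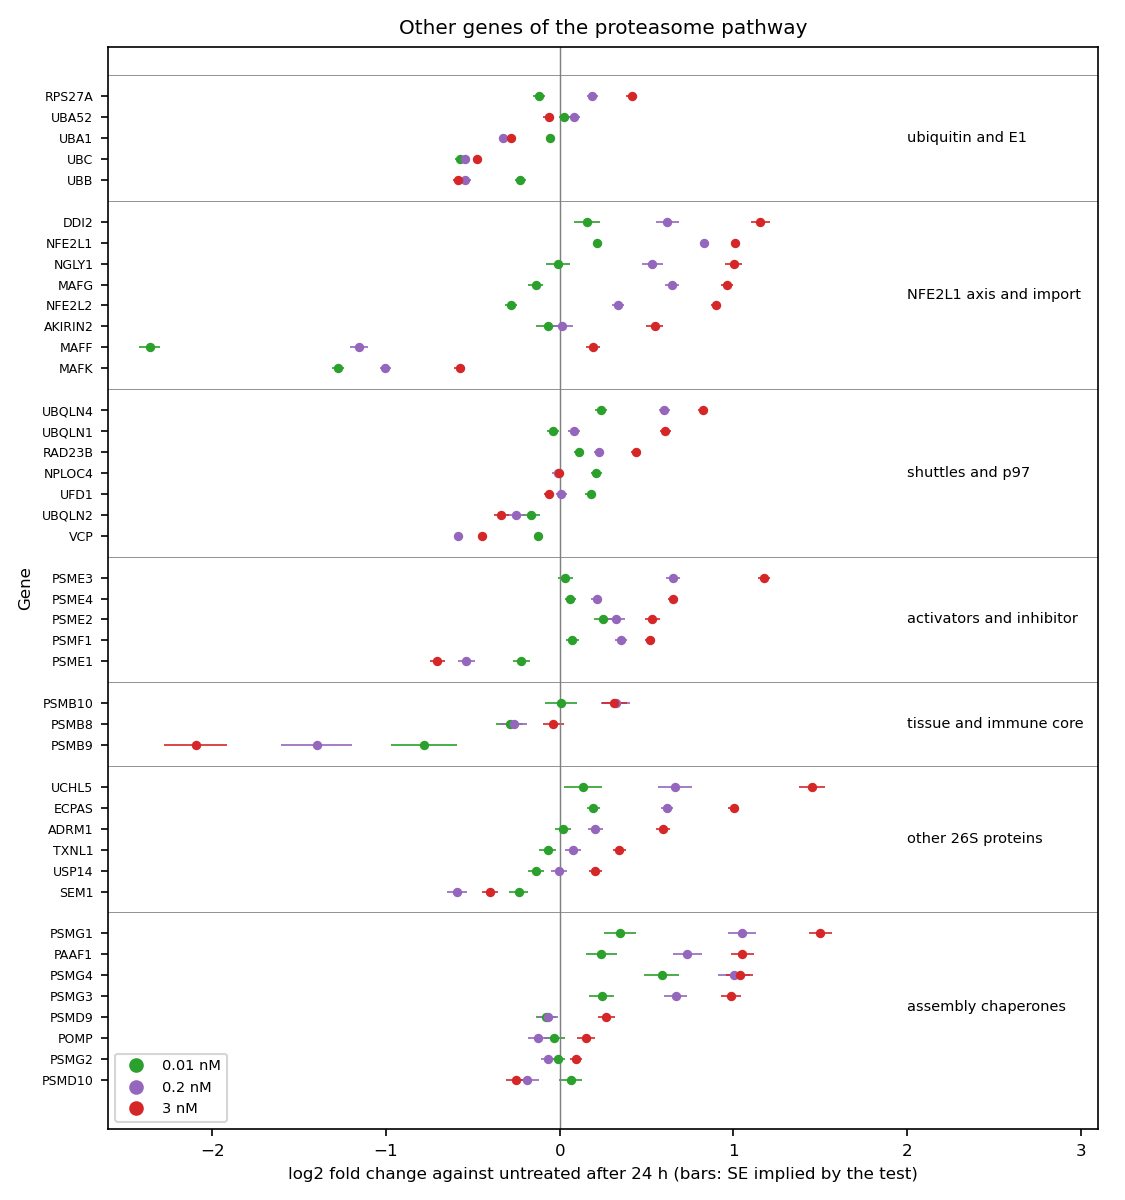
Log2 fold change ± SE against untreated after 24 h for the other genes of the pathway at 0.01, 0.2 and 3 nM, grouped by role. Of the 3 nM values, PSMG1 and UCHL5 stand highest, at 1.50 and 1.45, and PSMB9 lowest at -2.10.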

How the data were processed

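RNA sequencing of 60 libraries (20 groups of 3) was analysed, with total counts of 5598803 to 28436445 per library. Estimated counts and TPM (transcript abundance scaled by length and to a fixed library total) for 57665 genes were used as deposited by the authors. The submitters' processing notes name Salmon 0.9.1, FastQC 0.11.5 and GRCh38, with no roles, and no annotation release was found in the labels or headers. Of the estimated counts as deposited, 77.81% were whole within 1e-06, and all were rounded.

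All libraries entered 1 edgeR 4.0.16 quasi-likelihood fit (R 4.3.3, 20 group means, 40 residual degrees of freedom, TMM scaling, filterByExpr, 18040 genes), tested on simulated data. The untreated level was the mean of both untreated sets. P-values were adjusted over all genes within a contrast, and genes with an adjusted p under 0.05 were called. The SE of a log2 change is its size over the root of F. Alternatives were RLE size factors, DESeq2 1.42.0, no filter, a replicate block, either untreated set alone, limma 3.58.1 on log2(TPM + 1) or log2(TPM + 0.1), and each library left out in turn. Replicates differed by more than sampling noise (chi-square per degree of freedom 1.378 to 19.16). The labels' dose of 0.195 nM is written 0.2 nM. Values per library are given for the catalytic subunits and for the core and regulatory genes with the highest and lowest change at 24 h at each dose. Other members are given by counts or fold change, and of each further list the genes with the extreme changes at 3 nM are named, with NFE2L1 and POMP. The library values of PSMD2, the genes named for their untreated TPM, PSMB8 and the markers checked were chosen after their values were seen, and 1 gene of the further lists is not reported here. The members and lists were chosen with earlier results of these data known.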

Additional observations from a re-analysis of the deposited data

Results flagged for a closer look

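Differences between doses in the effect of time or of treatment were themselves tested with edgeR. The change from 4 to 24 h was larger at 3 than at 0.2 nM in 16 of the 32 proteasome genes, by the interaction of dose and time (19.5% of all genes), and in 10 without replicate 1 of 0.2 nM at 24 h. Each dose was also set against the untreated set of like depth, a match read from total counts and not from the labels. The difference of those changes was tested. The change was higher at 3 than at 0.2 nM in 11 members after 4 h (13% of all genes). After 24 h it was higher in 23 (25.6%). Compared directly at 4 h on log2(TPM + 1), 5 members were higher and 3 lower (6.34% and 14.4%). The balance at 4 h thus depended on the scale.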

How the results depend on the processing

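The counts of members called at each dose and time, between doses, over time and between the untreated sets (54 counts in all) were recomputed under each alternative, and a count is said to hold when it stayed within 1.5 times the reported one. With edgeR, RLE size factors held 52 of the 54, as did DESeq2. Under both, 1 member was called higher at 3 nM after 2 h in place of 2, and 1 in untreated set 2 in place of 5. Without the filter on low counts 46 held. The others were 0 higher at 0.01 nM after 4 h, 7, 2 and 3 lower at 3 nM after 8, 16 and 24 h, 0 lower for 3 against 0.2 nM at 24 h, 0 lower for 24 h against 4 h at 0.01 nM and at 3 nM, and 3 lower in untreated set 2. Against untreated set 1 alone 35 of 36 held, the exception being 1 lower at 0.01 nM after 24 h. Against set 2 alone 31 held, and the others at 0.01 nM were 1 higher after 2 h, 6 higher after 4 h, 1 lower after 16 h and 4 lower after 24 h, with 1 higher at 0.2 nM after 2 h. With each dose against the untreated set of like depth, 3 of 4 held and 0 were lower for 3 against 0.2 nM at 24 h. The cause was not tested for any of these. Leaving PSMD5 out of the regulatory genes kept all 18 medians within their spread. The other alternatives moved more of the 36 core and regulatory medians against untreated. With RLE size factors or DESeq2, 33 stayed within their spread, and without the filter 28 did. Only 1 did so on log2(TPM + 1), and 0 on log2(TPM + 0.1). With TPM rescaled without the mitochondrially encoded genes, 13 did.

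In limma on log2(TPM + 1), 19 of the 54 counts held. At 0.01 nM, after 1, 2, 4, 8, 16 and 24 h, the members called higher were 0, 3, 8, 17, 29 and 24, and lower 8, 2, 2, 1, 0 and 0. At 0.2 nM, after 1, 2, 4, 8, 16 and 24 h, the members called higher were 0, 2, 9, 10, 24 and 19, and lower 7, 7, 7, 3, 3 and 3. At 3 nM, after 1, 2, 4, 8, 16 and 24 h, the members called higher were 3, 7, 11, 19, 25 and 24, and lower 4, 6, 6, 4, 2 and 3. Higher and lower counts were 1 and 5 for 0.2 against 0.01 nM at 4 h, 5 and 3 for 3 against 0.2 nM at 4 h, 4 and 10 for 0.2 against 0.01 nM at 24 h, 18 and 4 for 3 against 0.2 nM at 24 h, 15 and 0 for 24 h against 4 h at 0.01 nM, 16 and 0 for 24 h against 4 h at 0.2 nM, 24 and 2 for 24 h against 4 h at 3 nM, 24 and 0 for untreated set 2 against set 1 and 11 and 0 for 3 against 0.2 nM in the change from 4 to 24 h. With log2(TPM + 0.1) 19 held too, and each of the 54 counts was the same as with log2(TPM + 1), except 25 members higher in untreated set 2.

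On log2(TPM + 1) with no filter, 17 of the 54 counts held. At 0.01 nM, after 1, 2, 4, 8, 16 and 24 h, the members called higher were 0, 3, 6, 16, 29 and 21, and lower 5, 2, 2, 1, 0 and 0. At 0.2 nM, after 1, 2, 4, 8, 16 and 24 h, the members called higher were 0, 1, 6, 9, 24 and 18, and lower 6, 5, 6, 3, 3 and 2. At 3 nM, after 1, 2, 4, 8, 16 and 24 h, the members called higher were 1, 4, 10, 19, 23 and 24, and lower 3, 5, 5, 4, 2 and 3. In the order of the same contrasts, the pairs of higher and lower counts were 1 and 5, 3 and 1, 3 and 8, 17 and 3, 12 and 0, 15 and 0, 23 and 1, 20 and 0, 10 and 0. 

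On log2(TPM + 1) with each library rescaled without the mitochondrially encoded genes, an alternative chosen after seeing the data, 30 of the 54 counts held. At 0.01 nM, after 1, 2, 4, 8, 16 and 24 h, the members called higher were 0, 1, 3, 9, 28 and 13, and lower 13, 11, 4, 4, 0 and 1. At 0.2 nM, after 1, 2, 4, 8, 16 and 24 h, the members called higher were 0, 0, 4, 6, 18 and 16, and lower 14, 13, 12, 10, 4 and 5. At 3 nM, after 1, 2, 4, 8, 16 and 24 h, the members called higher were 0, 0, 4, 13, 21 and 21, and lower 11, 14, 14, 9, 4 and 6. In the order of the same contrasts, the pairs of higher and lower counts were 1 and 5, 3 and 6, 3 and 10, 16 and 4, 15 and 0, 15 and 1, 23 and 2, 7 and 1, 11 and 0. The cause of the differences from the counts in edgeR was not tested further. PSMD7 at 0.2 nM after 24 h was -0.14 in edgeR (adjusted p = 0.00131) and 0.0001 in limma on log2(TPM + 0.1) (adjusted p = 0.999), where its direction turned. Against untreated set 1 alone it was -0.10 and not called in edgeR (adjusted p = 0.053).

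Of 444 recomputed counts with 1 library left out, 410 held. The others came from these results, given with their lowest and highest count. The ranges were 0.01 nM, 2 h against untreated, 0 to 1 higher; 0.01 nM, 4 h against untreated, 1 to 5 higher; 0.01 nM, 8 h against untreated, 7 to 12 higher; 0.01 nM, 8 h against untreated, 1 to 6 lower; 0.01 nM, 24 h against untreated, 4 to 9 higher. Then came 0.01 nM, 24 h against untreated, 1 to 3 lower; 0.2 nM, 4 h against untreated, 1 to 2 higher; 3 nM, 2 h against untreated, 1 to 3 higher; 0.2 against 0.01 nM at 4 h, 7 to 12 lower; 3 against 0.2 nM at 4 h, 0 to 1 lower. Further ranges were 3 against 0.2 nM at 24 h, 1 to 2 lower; 24 h against 4 h at 0.01 nM, 0 to 1 lower; 24 h against 4 h at 0.2 nM, 0 to 1 lower; untreated set 2 against set 1, 0 to 4 higher; untreated set 2 against set 1, 3 to 10 lower. The last were 3 against 0.2 nM in the change from 4 to 24 h, 10 to 15 higher; 3 against 0.2 nM in the change from 4 to 24 h, 0 to 2 lower. Libraries that move a count by over 1.5 times are named in the report beside the larger counts. Whether replicate numbers in the labels pair the libraries was not settled. Over 8647 genes, same-numbered libraries correlated between -0.394 and 0.387 (median 0.0155, above 0.1 in 93 of 570 pairs). The median for other numbers was -0.00795. Of the 60 libraries, 33 correlated best with their own number, out of 3 numbers. With the replicate number as a block, all 54 counts held. The 39 libraries of untreated set 1 with 0.01 and 0.2 nM were shallower than the 21 of set 2 with 3 nM (median total counts of 7694656 and 24527817), so a small change is harder to call at the lower doses. Of 72 log2 changes of the genes named, 66 held under DESeq2, 66 under RLE and 55 on log2(TPM + 1), and of 648 with a library left out, 612 held.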
